A study of Mus musculus with 6 samples.

Results

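Histamine is made, cleared and sensed by a small set of proteins, and 5 of their genes were followed here in the luminal epithelium of the mouse uterus, which faces the uterine cavity and the embryo: Hdc, Hnmt, Aoc1, Hrh1 and Hrh2. They were taken by gene symbol from a table of 24964 genes, and all 5 were found in it. The set was chosen with results of the same genotype comparison known, among them a higher level of Hdc, so the values of the 5 genes are given as a description, without a test. RNA-seq was made from epithelium isolated by laser capture on pregnancy day 4, from 3 samples of Foxo1f/f females (Foxo1ff) and 3 samples of Pgrcre/+Foxo1f/f females (Foxo1dd). Both genotypes carry floxed alleles of Foxo1, a forkhead transcription factor, and Foxo1dd females also carry Cre at the gene of the progesterone receptor, Pgr. Deletion is therefore directed to every cell type that expresses this receptor, not to the epithelium alone, and the genotypes differ at Pgr as well as at Foxo1. Females were housed with littermates until 8 weeks of age and then mated. The samples are labelled as bioreplicates, with no word on the animals used for each, and p-values therefore rest on a spread between samples that may in part be technical.

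Histidine decarboxylase, the product of Hdc, makes histamine from the amino acid histidine in a single step that needs pyridoxal phosphate, a form of vitamin B6. Clearance starts along either of 2 routes: histamine N-methyltransferase (Hnmt) methylates histamine inside cells with S-adenosylmethionine as the methyl donor, and amine oxidase copper containing 1 (Aoc1, also called diamine oxidase) oxidises histamine outside cells. Histamine acts through G protein-coupled receptors, of which H1 (Hrh1) couples to Gq and calcium release and H2 (Hrh2) to Gs and cyclic AMP. Mast cells and basophils are the best known sources of histamine, and in the mouse uterus Hdc is also known to be expressed by the epithelium around the time of implantation, under the control of progesterone.

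The 3 members that were above the minimum level used for testing lie on chromosomes 2 and 6 of GRCm38, the assembly that mm10 names. Hdc spans chr2:126593667-126619299 on the minus strand, Hnmt chr2:24002910-24049394 on the minus strand and Aoc1 chr6:48872896-48909188 on the plus strand. None of these 3 shares exon bases with another annotated gene. Since the deleted gene encodes a DNA-binding factor, the 250 bases before the RefSeq start of each are shown (build GRCm38.p6, 5′ to 3′ on the gene's own strand). All 5 members matched a RefSeq promoter entry. Capitals mark matches to the forkhead heptamers GTAAACA and GTAAATA or to TGTTCT, a hexamer held in the DNA element that the progesterone and glucocorticoid receptors share, on either strand.
Hdc, chr2:126618679-126618928, minus strand: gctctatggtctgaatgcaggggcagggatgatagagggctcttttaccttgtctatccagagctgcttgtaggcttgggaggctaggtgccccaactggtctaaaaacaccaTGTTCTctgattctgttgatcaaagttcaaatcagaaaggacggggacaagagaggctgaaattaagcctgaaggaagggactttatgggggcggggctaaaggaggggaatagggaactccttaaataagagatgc
Hnmt, chr2:24049380-24049629, minus strand: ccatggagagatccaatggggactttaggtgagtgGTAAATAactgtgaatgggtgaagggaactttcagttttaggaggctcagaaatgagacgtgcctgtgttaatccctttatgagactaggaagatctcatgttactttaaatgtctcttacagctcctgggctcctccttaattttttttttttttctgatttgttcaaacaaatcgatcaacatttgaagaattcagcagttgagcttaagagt
Aoc1, chr6:48895005-48895254, plus strand: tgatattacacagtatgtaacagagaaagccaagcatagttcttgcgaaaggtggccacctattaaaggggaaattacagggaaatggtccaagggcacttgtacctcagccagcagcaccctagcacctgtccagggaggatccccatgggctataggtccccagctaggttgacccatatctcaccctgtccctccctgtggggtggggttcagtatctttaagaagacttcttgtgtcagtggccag
The Hdc window held TGTTCT once, 137 bases before the start. Among 32851 windows of 250 bases before annotated starts, 16.1% held this hexamer on either strand. Of the members not shown, Hrh1 also held it, 138 bases before its start at 114403666, and Hrh2 held no match. The Hnmt window held GTAAATA once, 215 bases before the start, a heptamer present in 2.73% of windows, and no window of the 3 held GTAAACA, present in 3.17%. The Aoc1 window held no match, nor did the window before a second Aoc1 start at 48904986. No 2 of these motifs overlap where they were found, and a match of letters is not a measured binding site. By GENCODE M21 the Hdc window lies in an intron of a longer Hdc transcript model. The Hnmt window reaches into an exon of Hnmt at its 3′ end, and the Aoc1 window shares bases with an exon of Aoc1.

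Luminal and pan-epithelial markers were present in all samples, with a summed level of 2725 to 3509 FPKM (expression divided by gene length and library depth) over 16 genes in Foxo1ff and 3835 to 4311 FPKM in Foxo1dd. Of these 16 genes 7 rose, among them Krt8 (means of 280 and 680 FPKM), Krt19 (47.8 and 417 FPKM) and Lpar3 (5.20 and 175 FPKM), and 4 fell, among them the epithelial adhesion genes Epcam (555 and 393 FPKM) and Cdh1 (289 and 194 FPKM). The call of Epcam was lost under median-of-ratios scaling (limma adjusted p = 0.0512). Of all tested genes, 22.2% rose and 34.2% fell at a limma adjusted p under 0.05. The marker counts here and below are to be read beside these shares. Foxo1 was 160.0, 118.5 and 111 FPKM in the Foxo1ff samples and 1.72, 0.942 and 1.22 FPKM in Foxo1dd. Pgr was 1.64 to 2.44 FPKM in the Foxo1ff samples and 28.3 to 36.2 FPKM in Foxo1dd. Foxo1dd 2 stood apart from the other samples, with 13995 genes above 0 against 15474 to 16062. In bulk samples such as these, fewer cells of a type and less RNA per cell cannot be told apart.

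Hdc, the gene of histamine synthesis, was the most abundant member in every sample. Its level was 135, 114 and 154 FPKM in the Foxo1ff samples and 1177, 985 and 1409 FPKM in Foxo1dd. Every Foxo1dd sample lay far above every Foxo1ff sample, and the lowest of the Foxo1dd values was that of Foxo1dd 2. The group means were 134 ± 19.9 and 1191 ± 212 FPKM (SD, n = 3 each), an 8.86-fold difference, and the log2 change was 3.13 ± 0.17 (limma SE) as a difference of log2(FPKM + 1), a scale on which the changes of low genes come out too small. Ranked by FPKM among all 24964 genes, Hdc stood at places 683, 842 and 578 in the Foxo1ff samples and at places 45, 66 and 40 in the Foxo1dd samples. Place 1 is the highest, so Hdc stood higher in the order in each Foxo1dd sample than in any Foxo1ff sample.

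Markers of other cells that could hold or make histamine were read beside Hdc, and their part in its level was not tested. Of 11 mast cell markers, 10 were listed at 0 FPKM in all 6 samples, among them Cpa3 (mast cell carboxypeptidase), Fcer1a and Ms4a2 (subunits of the IgE receptor), Cma1 (chymase) and Tpsb2 (tryptase). The remaining mast cell marker, Kit, was 4.97, 2.61 and 3.05 FPKM in the Foxo1ff samples and 1.73, 0.673 and 4.77 FPKM in Foxo1dd. Of 5 basophil markers, 4 were listed at 0 throughout, and the 1 above 0, Il3ra, ran from 7.52 to 17.8 FPKM in the Foxo1ff samples and from 8.15 to 13.4 FPKM in Foxo1dd. Neither Kit nor Il3ra passed the threshold (limma adjusted p = 0.256 and 0.423). Of 11 neutrophil markers, 5 were listed at 0 throughout, among them S100a8, Elane and Camp, and the summed level of the list was 0.409 to 0.848 FPKM in the Foxo1ff samples and 1.10 to 4.37 FPKM in Foxo1dd. Ly6g made up nearly all of the Foxo1dd sum (1.10, 4.37 and 1.89 FPKM) and, as the single neutrophil marker tested, rose (log2 change 1.52, limma adjusted p = 0.00358). Mpo (myeloperoxidase), below the minimum, was 0.392, 0.510 and 0.446 FPKM in the Foxo1ff samples and listed at 0 in all 3 Foxo1dd samples. Of 4 eosinophil markers, 3 were listed at 0 throughout and Epx reached 0.009 FPKM in a single sample. Macrophage and other leukocyte markers, 11 genes in all, summed to 124 to 157 FPKM in the Foxo1ff samples and 150 to 183 FPKM in Foxo1dd. Cd14 made up most of the Foxo1dd sums (134, 163 and 162 FPKM, against 71.2, 73.7 and 89.2 FPKM in Foxo1ff). Of the 7 tested, 5 fell, including the pan-leukocyte gene Ptprc (means of 3.59 and 0.294 FPKM) and Lyz2 (43.5 and 7.51 FPKM). The other 2, Cd14 and Cd68, rose, the call of Cd68 being lost on leaving out any sample other than Foxo1dd 1 (limma adjusted p up to 0.114).

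Hnmt, the gene of the intracellular methylation route, was also higher in Foxo1dd. Its level was 3.18, 3.93 and 5.19 FPKM in the Foxo1ff samples and 29.9, 10.7 and 30.2 FPKM in Foxo1dd. All 3 Foxo1dd values lay above the Foxo1ff range, but Foxo1dd 2 lay well below the other two, which were nearly equal. The means were 4.10 ± 1.02 and 23.6 ± 11.2 FPKM (SD, n = 3 each), a 5.77-fold difference with a log2 change of 2.16 ± 0.35 (SE). Without Foxo1dd 2 the log2 change was 2.63 ± 0.18. The summed level of 11 stroma markers differed between the Foxo1dd samples in the same order, at 54.1, 38.6 and 56.4 FPKM in Foxo1dd 1, 2 and 3, against 36.1 to 40.5 FPKM in Foxo1ff, and its part in the Hnmt values was not tested. This order was not particular to stroma. The sums of the luminal (4029, 3835 and 4311 FPKM), glandular (5.01, 1.04 and 6.83 FPKM) and mast cell markers had it too, as did Hdc and Aoc1. The sums of the other marker lists did not. Nr2f2 made up most of the stroma sum in every sample, with 31.4, 25.0 and 30.4 FPKM in Foxo1dd 1, 2 and 3, highest in Foxo1dd 1. Col3a1 had 5.575, 3.805 and 6.672 FPKM in the same samples, in the order of Hnmt. Of the 9 stroma markers tested, 2 rose and 0 fell. The call of Col3a1 was kept only without Foxo1ff 3 or Foxo1dd 2 and that of Nr2f2 only without Foxo1dd 2, out of 6 fits that each left out 1 sample (limma adjusted p up to 0.0849 and 0.110).

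Aoc1, the gene of the oxidation route, went the other way. Its level was 9.92, 10.5 and 9.53 FPKM in the Foxo1ff samples and 2.80, 1.35 and 3.96 FPKM in Foxo1dd. The Foxo1ff samples lay close together and above every Foxo1dd sample, of which Foxo1dd 2 was again the lowest. The means were 9.99 ± 0.495 and 2.71 ± 1.31 FPKM (SD, n = 3 each), 3.69-fold lower in Foxo1dd, with a log2 change of -1.63 ± 0.25 (SE). The summed level of 7 glandular markers was also lower in Foxo1dd, at 1.04 to 6.83 FPKM against 51.8, 61.0 and 210 FPKM in Foxo1ff 1, 2 and 3. Of the 4 glandular markers tested, Prss28, Prss29 and Spink1 fell and Lif rose, the last call being lost without Foxo1ff 1 or Foxo1dd 1 (limma adjusted p up to 0.0730). Foxa2, Cxcl15 and Wfdc3 lay below the minimum. Foxa2 had means of 0.943 and 0.644 FPKM with overlapping groups. Cxcl15 and Wfdc3 were listed at 0 in every Foxo1ff sample and reached 0.166 and 0.287 FPKM in Foxo1dd 3. Most of the Foxo1ff sum came from Spink1 (44.2, 57.2 and 178 FPKM), so the sum is not a measure of gland content. The part of glandular cells in the Aoc1 values was not tested. All 3 tested members passed the threshold (a Benjamini-Hochberg adjusted p under 0.05 in limma over 11427 genes), where 56.4% of all tested genes did, and the groups did not overlap for all 3, where this held for 64.2% of tested genes. Since the genes were chosen with this comparison known, nothing is read from these counts.

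**Figure D1:**
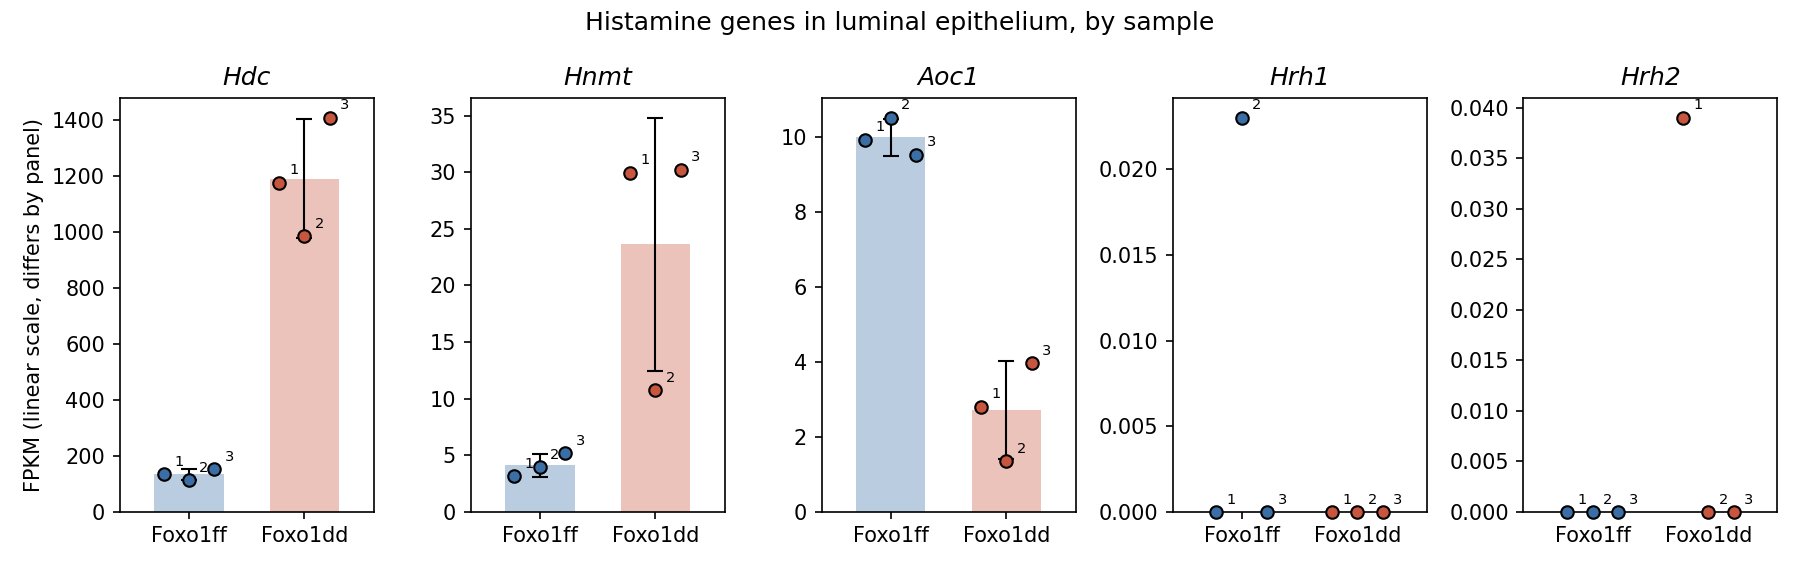
FPKM of the 5 histamine genes (vertical axis, linear and different in each panel) in the Foxo1ff and Foxo1dd samples, with the replicate number beside each point. Bars and error bars, drawn for Hdc, Hnmt and Aoc1, are the mean and SD of 3 samples. Hdc and Hnmt points of Foxo1dd lie above all Foxo1ff points, Aoc1 points lie below, and Hrh1 and Hrh2 are at 0 in all but 1 sample each.

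Set beside each other, Hnmt and Aoc1 changed places. Both are given per gene length, so their FPKM levels can be compared within a sample. The ratio of Hnmt to Aoc1 was 0.320, 0.374 and 0.545 in the Foxo1ff samples and 10.7, 7.94 and 7.63 in the Foxo1dd samples. Aoc1 was the higher of the pair in all 3 Foxo1ff samples and Hnmt in all 3 Foxo1dd samples. The low Hnmt and low Aoc1 values of Foxo1dd 2 offset each other in this ratio, which was close to that of Foxo1dd 3. The sum of both genes, by contrast, did not separate the genotypes, with 13.1, 14.4 and 14.7 FPKM in the Foxo1ff samples and 32.7, 12.1 and 34.2 FPKM in Foxo1dd. Hdc exceeded this sum 10.3-fold, 7.90-fold and 10.5-fold in Foxo1ff and 36.0-fold, 81.4-fold and 41.2-fold in Foxo1dd. These are levels of RNA, and neither enzyme activity nor histamine was measured.

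**Figure D2:**
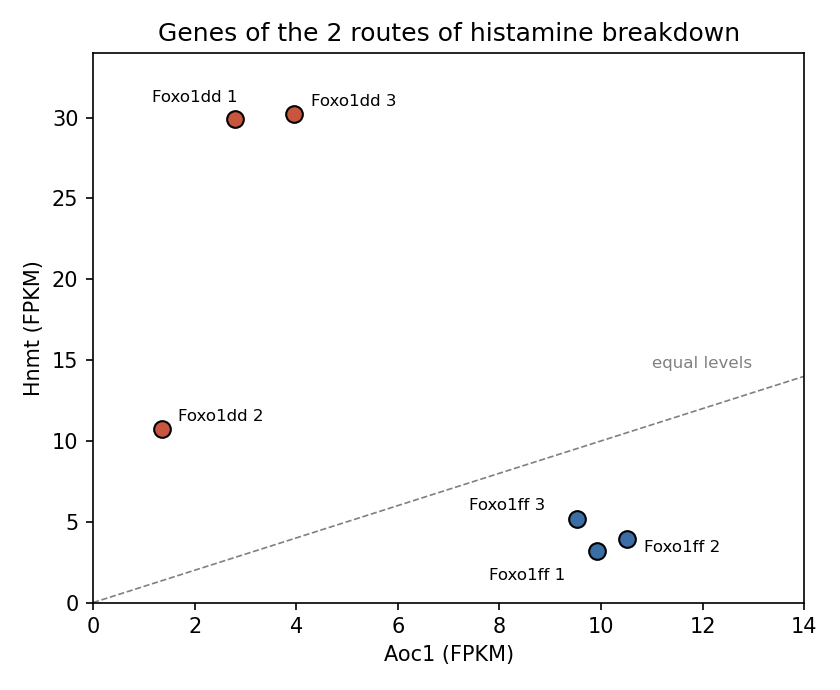
Level of Hnmt (vertical axis, FPKM) against Aoc1 (horizontal axis, FPKM) in each of the 6 samples, blue for Foxo1ff and red for Foxo1dd. The dashed line marks equal levels: the 3 Foxo1ff samples lie below it with Aoc1 at 9.53 to 10.5 FPKM, and the 3 Foxo1dd samples lie above it with Aoc1 at 1.35 to 3.96 FPKM.

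The receptor genes were near or at 0. Hrh1 (chr6:114397936-114483296, plus strand) was listed at 0.023 FPKM in Foxo1ff 2 and at 0 in the other 5 samples. Hrh2 (chr13:54192129-54236180, plus strand, with exon bases opposite Gm16578) was listed at 0.039 FPKM in Foxo1dd 1 and at 0 in the other 5. Depth can be read from the low values of small RNA genes, which came in steps of single reads, and at 1 kb of exon a read was worth 0.0102 to 0.0136 FPKM. With exon lengths of 4450 bases for Hrh1 and 5935 bases for Hrh2 in GENCODE M21, the single values correspond to about 10.1 and 17.8 reads. A listed 0 still allows a level at which up to 3 reads are expected in a library. That level is 0.00686 to 0.00915 FPKM for Hrh1 and 0.00514 to 0.00686 FPKM for Hrh2, for counting error only. Neither gene reached the minimum of a mean of 1 FPKM, so no change between genotypes was measurable for either. The other receptor genes were no higher: Hrh3 was listed at 0.004 FPKM in Foxo1dd 3 and at 0 elsewhere, and Hrh4 at 0 in all 6 samples.

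A wider list of 48 genes around the pathway, in 8 groups by role, was fitted with all other genes. Of these, 28 reached the minimum, and 6 rose and 10 fell in Foxo1dd by limma with Benjamini-Hochberg adjustment over all genes. That is 21.4% and 35.7% of the tested list genes, where 22.2% of all tested genes were higher and 34.2% lower, so the list moved about as often as genes in general. The median log2 change of the list was -0.25 and that of all tested genes -0.15. Under median-of-ratios scaling, which moved the median of all tested genes to -0.01, the split of the list was 7 higher and 8 lower, and that of all tested genes went from 2533 higher and 3912 lower to 3184 and 3302. Exons of other annotated genes lie opposite those of Slc15a4, Hars, Pdxk, Csad, Slc18a2, Aldh2, Mat2a, Plcb3, Itpr1 and Adcy6, so part of their reads could belong to those genes.

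Genes that set how much histidine is at hand went in both directions. Hal, histidine ammonia-lyase, which starts the breakdown of histidine and so competes with Hdc for it, was 86.7, 96.7 and 57.7 FPKM in the Foxo1ff samples and 5.55, 8.26 and 4.24 FPKM in Foxo1dd. It fell to a small part of its Foxo1ff level in every Foxo1dd sample, with a log2 change of -3.54 ± 0.25 (SE, limma adjusted p = 4.99e-06). Slc7a5 and Slc3a2, the 2 chains of a transporter of large neutral amino acids that carries histidine, rose together from means of 17.9 to 28.9 FPKM and from 34.7 to 59.3 FPKM. Their log2 changes were 0.65 ± 0.14 and 0.75 ± 0.16 (SE, limma adjusted p = 0.00324 and 0.00332), and the groups did not overlap for either. Slc15a4, a lysosomal exporter of histidine and peptides, had a log2 change of -0.37 (limma adjusted p = 0.0342), a call that was lost under median-of-ratios scaling (adjusted p = 0.163) and on leaving out any of 5 samples. Hars, the tRNA synthetase for histidine, was not called (41.5 against 34.7 FPKM), and Slc7a8, Slc38a3 and Slc38a5 lay below the minimum.

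Among genes of the cofactor of histidine decarboxylase, Pdxp, a phosphatase that removes pyridoxal phosphate, fell from 7.39 to 1.63 FPKM (log2 change -1.67 ± 0.17, SE, limma adjusted p = 4.39e-05). The value of Pdxp is uncertain, since exons of Gm49510 on its own strand overlap it. Pdxk, a kinase that acts in making the cofactor, was not called: it had 39.5, 13.0 and 22.5 FPKM in the Foxo1ff samples and 50.0, 44.4 and 27.7 FPKM in Foxo1dd (limma adjusted p = 0.0935). Pdxk passed without Foxo1ff 1 (limma adjusted p = 0.0117) and without Foxo1dd 3 (0.0407). Of the decarboxylases related to Hdc, Csad, which acts in taurine synthesis, rose from 10.4 to 32.8 FPKM (log2 change 1.52, limma adjusted p = 3e-04). Ddc, which makes dopamine and serotonin, was listed at 0 in Foxo1ff and at 0.056 to 0.324 FPKM in Foxo1dd. Gad1 and Gadl1 were at or near 0.

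Transport of histamine into vesicles and across the membrane was represented at low levels. Slc18a2, the vesicular transporter that loads histamine into granules, was 2.53, 3.39 and 3.16 FPKM in the Foxo1ff samples and 2.33, 1.99 and 2.16 FPKM in Foxo1dd and was not called (limma adjusted p = 0.117). Slc18a1, the related transporter of endocrine cells, fell from 1.55 to 0.535 FPKM (log2 change -0.73, limma adjusted p = 0.00902). The organic cation transporters Slc22a2, Slc22a3 and Slc29a4, which can carry histamine across the plasma membrane, were at most 0.058 FPKM in any sample.

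Beyond the opening steps of breakdown, the product of Hnmt is oxidised by monoamine oxidase B and the aldehydes that result by aldehyde dehydrogenases. Maob had 5.81, 5.40 and 2.36 FPKM in the Foxo1ff samples and 5.06, 6.39 and 5.11 FPKM in Foxo1dd and was not called (limma adjusted p = 0.364). Its log2 change of 0.30 turned to -0.024 without Foxo1ff 3. Aldh7a1, an aldehyde dehydrogenase of broad use, was 55.5, 33.2 and 57.9 FPKM in the Foxo1ff samples and 336, 293 and 301 FPKM in Foxo1dd, a rise of 2.68 ± 0.20 log2 (SE, limma adjusted p = 7.22e-06). Exons of Phax lie opposite Aldh7a1, and without a known strand setting their reads cannot be told apart. Aldh2 and Aldh3a2 were not called, although Aldh2 passed under median-of-ratios scaling (log2 change 0.29, limma adjusted p = 0.0380). Aldh1a1, Aox1, Maoa and the amine oxidases related to Aoc1, Aoc2 and Aoc3, were below the minimum, with Foxo1ff and Foxo1dd means of 1.06 and 0.454 FPKM for Aoc2 and of 0.055 and 0.00167 FPKM for Aoc3. For the methyl donor of Hnmt, the synthetase genes Mat2a (113 and 98.2 FPKM) and Mat2b (62.1 and 70.5 FPKM) were not called, and Ahcy, which clears the spent donor, fell from 12.5 to 4.77 FPKM (log2 change -1.23, limma adjusted p = 0.000198).

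Genes that couple histamine receptors to the cell interior are shared with many other receptors. Those tested lay above Hrh1 and Hrh2 in every sample, but Plcb2 and Adcy4, at most 0.054 and 0.065 FPKM, did not. Of 15 coupling genes 11 were tested, and 2 rose and 5 fell, while Plcb1, Plcb2, Adcy4 and Adcy7 lay below the minimum. That is 18.2% and 45.5% of those tested, where 22.2% of all tested genes were higher and 34.2% lower. Itpr2, a calcium release channel, rose from 47.3 to 145 FPKM, while its relative Itpr3 fell from 30.5 to 14.4 FPKM (log2 changes 1.70 and -1.03, limma adjusted p = 0.00105 and 0.00113). Plcb4, a phospholipase C of the Gq route, fell from 17.9 to 4.81 FPKM (log2 change -1.70, limma adjusted p = 7.7e-05). Of the adenylyl cyclases of the Gs route, Adcy9 rose from 2.98 to 6.61 FPKM and Adcy3 fell from 1.87 to 0.166 FPKM (log2 changes 0.93 and -1.29, limma adjusted p = 0.00628 and 0.000462). Gnas, which encodes the Gs alpha subunit, fell from 117 to 81.0 FPKM (log2 change -0.52, limma adjusted p = 0.00471). Gna11 fell by 0.39 on the log2 scale (limma adjusted p = 0.0175), a call lost under median-of-ratios scaling (0.0587) and without Foxo1ff 2 (0.0902), and Gnaq was not called. Exons of other genes lie opposite those of Gnas, Itpr3 and Adcy3, and Itpr3 also holds Mir7677 on its own strand.

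**Figure D3:**
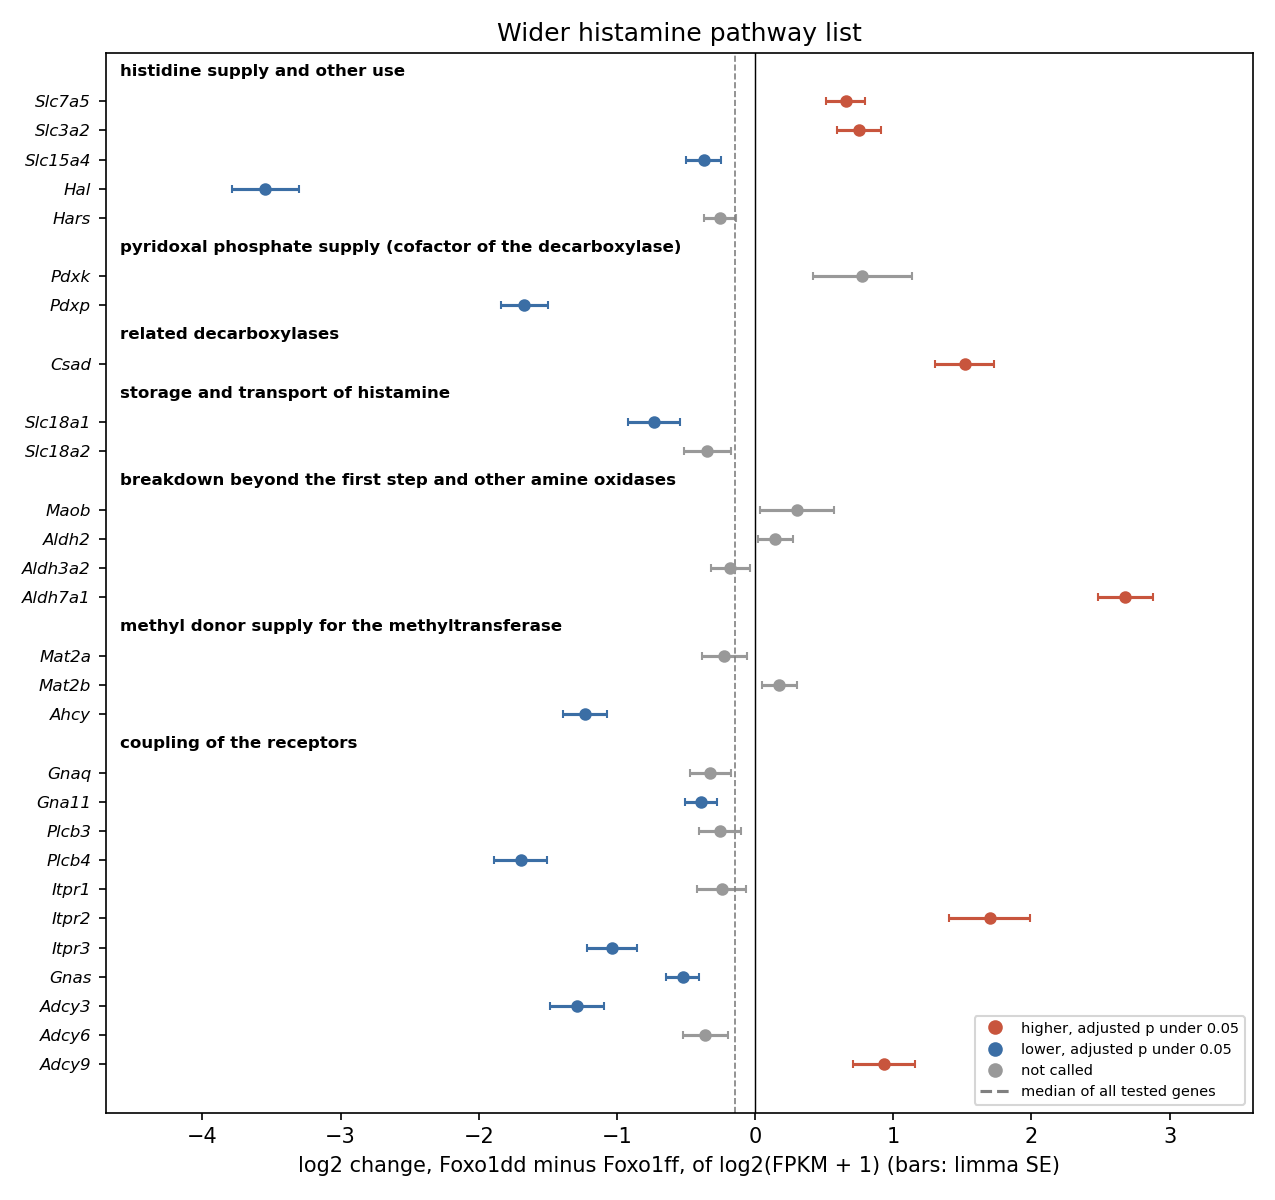
Log2 change (Foxo1dd minus Foxo1ff, horizontal axis) of the 28 tested genes of the wider list, grouped by role, with bars of 1 limma SE, red for higher, blue for lower and grey for not called. The dashed line is the median of all tested genes, -0.15. Hal lies farthest to the left, at -3.54, and Aldh7a1 farthest to the right, at 2.68.

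The genes whose levels ran most like those of each member were found by the root mean square distance between log2(FPKM + 1) profiles over the 6 samples, each centred on its own mean, among 11012 named tested genes. Since the measure follows the genotype difference and the order of samples within each genotype, it describes likeness in these 6 samples only. Nearest to Hdc were Ctsd (distance 0.0863), Tmem229b (0.106), Eya2 (0.107), Iqgap2 (0.114) and Nsg2 (0.128). Ctsd, the lysosomal protease cathepsin D, was 1276, 1031 and 1265 FPKM in the Foxo1ff samples and 10186, 9609 and 11985 FPKM in Foxo1dd, so it had nearly the fold difference of Hdc (8.90) at a higher level. Ctsd shares exon bases with Gm49369 on the same strand. Nearest to Hnmt were B3gnt8 (0.084), Ckmt1 (0.176), Slc52a3 (0.181), Bmp5 (0.208) and Bche (0.232). B3gnt8, a glycosyltransferase gene, was 9.33, 3.30 and 8.98 FPKM in Foxo1dd 1, 2 and 3, with Foxo1dd 2 low as for Hnmt, and exons of Bckdha lie opposite it. Slc52a3, a riboflavin transporter, was 55.3, 13.4 and 44.4 FPKM in the same samples. Nearest to Aoc1 were Mctp2 (0.108), Tspan6 (0.123), Fgd3 (0.136), Bcl2l11 (0.139) and Simc1 (0.147). Bcl2l11, which encodes the apoptosis inducer BIM, was 15.6, 15.6 and 14.1 FPKM in the Foxo1ff samples and 3.36, 2.60 and 6.10 FPKM in Foxo1dd. All 5 genes near Aoc1 shared its order within Foxo1dd, lowest in Foxo1dd 2 and highest in Foxo1dd 3, which the choice by likeness favours.

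**Figure D4:**
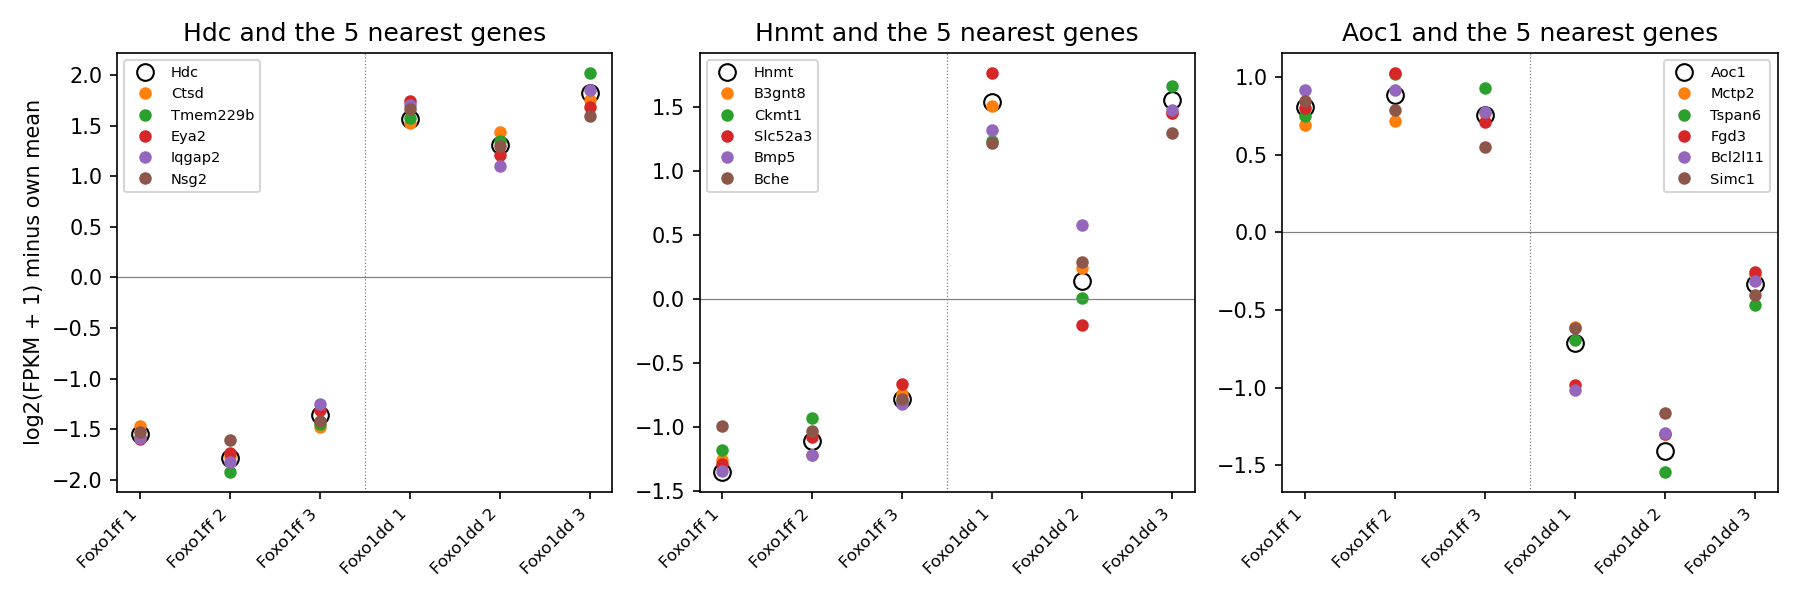
Centred log2(FPKM + 1) values (vertical axis) of Hdc, Hnmt and Aoc1 (open circles) and of the 5 genes nearest to each (filled points) in the 6 samples (horizontal axis). The panels differ in vertical scale. Foxo1dd 2 lies apart from Foxo1dd 1 and Foxo1dd 3 for Hnmt and its nearest genes, where Hnmt had 10.7 FPKM against 29.9 and 30.2 FPKM.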

How the data were processed

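The deposited table holds 1 FPKM value per gene and sample, computed by the authors. Per the submitters' processing notes, build mm10, STAR 2.5.2b, featureCounts 1.5.0-p1 (Subread), DESeq2 1.12.4 and edgeR 3.28.0 were used at steps the notes do not specify. Not given in the sources used here are the annotation, gene lengths, strand setting, multi-mapping and any scaling between libraries. Because FPKM values are not counts, no count model was used. The 11427 of 24964 genes whose 6 values averaged 1 FPKM or more were fitted on the log2(FPKM + 1) scale in limma 3.58.1 (R 4.3.3), using lmFit and eBayes with trend and genotype as the only term. Calls were made where the Benjamini-Hochberg adjusted p was under 0.05. The procedure was checked on simulated data in which far fewer genes changed than were called here. Log2 changes are Foxo1dd minus Foxo1ff. An exact permutation test of 3 against 3 samples was not used.

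The members and the gene lists were chosen with earlier results of these data known, and 2 further genes of the pathway list were left out of it and of its counts and are not reported here. Named genes are the members, Foxo1, Pgr, the genes of the pathway and marker lists, and the 5 genes nearest to each tested member (symbols of the kinds Gm plus digits, Rik and -ps left out). Depth was read from small RNA genes with RefSeq lengths, taking the largest step that left 80% or more of the values under 12 reads within 0.05 of a whole read. It rested on 26 genes in Foxo1dd 2 and 93 to 132 in the others, where 88.5% to 100.0% of values were whole, and implies a divisor of 73700000 to 98300000 reads if nothing else was scaled. Positions are from GENCODE M21, in which 24423 deposited symbols were found. Promoter windows are from RefSeq (GRCm38.p6), and the motifs were chosen with the windows in view. The alternatives tried were other pseudocounts, filters, scalings and eBayes settings, a replicate block, and leaving out each sample.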

Additional observations from a re-analysis of the deposited data

How the results depend on the processing

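Hdc, Hnmt and Aoc1 kept the direction of their change under all 15 alternatives and moved by less than the spread between replicates. Most of these settings could not have given another outcome. Filters, eBayes settings and the replicate block change only the SE of a log2 change. Since the groups did not overlap, neither another pseudocount nor leaving out 1 sample could turn the direction. Leaving out 1 of 3 samples also cannot move a change by more than that spread. Only the pseudocounts and scalings could move the size further, and only the scalings could turn the direction. Across the 6 fits that leave out 1 sample, the log2 change ran from 3.00 to 3.26 for Hdc, from 1.92 to 2.63 for Hnmt and from -1.88 to -1.34 for Aoc1, with the largest Hnmt value and the smallest Aoc1 change without Foxo1dd 2. Median-of-ratios scaling gave 3.29, 2.29 and -1.51, and a pseudocount of 0.1 gave 3.14, 2.38 and -1.97. Foxo1 and Pgr kept their calls in all 15, and the counts of higher and lower genes, over the pathway list and over all tested genes, stayed within 1.5 times. The list counts ran from 6 to 7 higher and from 8 to 10 lower when 1 sample was left out. Of single list genes, the change of Maob ran from -0.024 (without Foxo1ff replicate 3) to 0.49 (without Foxo1ff replicate 1), and the cause was not tested. Bioreplicate numbers showed no clear pairing of the samples, though so few pairs cannot settle this. Deviations of same-numbered samples correlated at r = 0.123, 0.107 and -0.133 across genes, and those of differently numbered samples at r = -0.207 to 0.15. With the number as a replicate block the pathway list had 7 higher and 9 lower genes, and the log2 change of Hdc was 3.13 ± 0.13 (SE). Under this block Pdxk passed the threshold (limma adjusted p = 0.0302) and Slc15a4 did not (0.079). Reads per library limit Hrh1 and Hrh2, and 3 samples a group limit every test.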

Other observations

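The nearest protein-coding neighbours of Hdc, Hnmt and Aoc1, named by position alone, were read from the same fit. Their calls are to be read beside the 56.4% of all tested genes that were called. Slc27a2, a fatty acid transporter 5.42 kb from Hdc, fell while Hdc was higher, with 14.4, 19.9 and 17.7 FPKM in the Foxo1ff samples and 6.75, 6.22 and 9.39 FPKM in Foxo1dd (log2 change -1.12 ± 0.19, SE, limma adjusted p = 0.000781). Gabpb1, 8.14 kb away on the other side of Hdc, had means of 11.1 and 10.1 FPKM and was not called (adjusted p = 0.503). Spopl, 431 kb from Hnmt, had 8.70 and 9.05 FPKM and was not called (adjusted p = 0.763), and Tbpl2, on the other side of Hnmt, was listed at 0.09 FPKM in Foxo1dd 1 and at 0 elsewhere. Tmem176a, 25.8 kb from Aoc1, fell from 888 to 592 FPKM (log2 change -0.64 ± 0.22, SE, limma adjusted p = 0.0336), but its lowest Foxo1dd value, 416 FPKM, was in Foxo1dd 1 and its highest, 816 FPKM, in Foxo1dd 2, unlike Aoc1. The other neighbour of Aoc1 was listed at 0 in all 6 samples.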
